A study of Mus musculus with 18 samples.

Results

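The histone genes measured here were the 37 mouse genes, of 19935 in all, whose array probe carried a single gene symbol of the H1, H2A, H2B, H3 or H4 families (current or older names). They were read by 38 of 21780 probes with 1 symbol, split by symbol into 22 probes of replication-dependent core histones (4 H2A, 9 H2B, 3 H3 and 6 H4), 8 probes of linker histones (H1) and 8 probes of variant histones, with H2az1 read by 2 probes. Of the core members 18 carry the older symbols of histone cluster 1, on chromosome 13, and 4 those of cluster 2, on chromosome 3. The members were picked by name, not by any measured value. Another 32 histone probes carried several symbols and were not members, and their values are given apart.

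Total RNA from mouse embryonic stem (ES) cells was hybridised to 18 Affymetrix whole-transcript arrays. R1E cells, an ES cell line grown with leukemia inhibitory factor, were mock treated, given adriamycin (doxorubicin, which traps topoisomerase II and breaks DNA) at a dose of 0.5 µM for 8 hours, or irradiated with ultraviolet light (UV) at 25 J/m2 and taken at 8 hours, 4 arrays being run per group. ES cells of genotype p53-/-, lacking the damage-activated transcription factor p53, were of 129X1 x 129S1 background and were grown in the same kind of medium. Of their 6 arrays 3 were of untreated cells and 3 of cells kept in 0.5 µM adriamycin for 8 hours. The sources used here do not say how many clones the p53-/- cells represent, nor whether arrays of 1 group stem from separate cultures. The p-values therefore reflect array-to-array spread, part of which can be technical. The level of Trp53 was not analysed here.

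Core histones form the octamer that DNA wraps around, and linker histones bind where the DNA enters and leaves it. The replication-dependent genes lie in clusters, lack introns and are transcribed in S phase through NPAT. Their mRNAs end in a stem-loop bound by SLBP instead of a poly(A) tail, and they are degraded quickly when DNA synthesis stops. Variant histones such as H2A.Z, H2A.X, H3.3 and macroH2A are made outside S phase as well, mostly from polyadenylated mRNAs, and are placed by dedicated chaperones. The labelling kit named in the labels primes at random along the transcript and does not need a poly(A) tail. Histone genes have near-identical coding sequences, so each probe below may also read other copies of its family, and values of single genes are uncertain to that extent.

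The median log2 intensity of an array was 5.3 to 5.61, and precision is limited by how many arrays there were. The median standard error (SE) of a change over all probes was 0.0636 in R1E cells and 0.14 in p53-/- cells. ES cell markers, 12 of 12 measured, lay above the array median in mock R1E and in untreated p53-/- cells. Of 7 fibroblast markers 0 were in the top 25% of probes in mock R1E cells and 3 were in untreated p53-/- cells, where Col1a1 reached percentile 96.1. Of 8 primitive endoderm markers 0 and 4 were in the top 25%. The summed fibroblast level (log2 of summed intensities) ran from 10.97 to 11.34 on untreated and from 10.75 to 11.10 on adriamycin p53-/- arrays, with overlap. The summed primitive endoderm level ran from 10.64 to 10.75 on untreated and from 10.14 to 10.42 on adriamycin p53-/- arrays, lower without overlap. The summed trophoblast level of 8 markers ran from 10.22 to 10.39 and from 10.32 to 10.62 on these arrays, with overlap. The part of these genes in the results was not tested.

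Promoter sequences differ between the classes and core families described below. RefSeq (GRCm38.p6) promoters were matched for 31 of the 37 member genes, and the 250 bases before each start were searched on both strands for 3 motifs. These were CCAAT, which the trimeric transcription factor NF-Y binds, the octamer ATTTGCAT, which POU family factors such as OCT1 bind, and the letters TATAAA, which mark a TATA box. The first, CCAAT, was in 14 of 18 core promoters (77.8%) against 34.5% of 27025 promoters of all genes. TATAAA was in 11 of 18 (61.1%) against 13%, and the octamer in 8 of 18 (44.4%) against 1.61%. The octamer was found in 3 of 4 H2A and 5 of 7 H2B promoters and in 0 of 7 promoters of H3 and H4. In H4 promoters CCAAT was in 2 of 5 (40%), near the share of all promoters, and TATAAA in 3 of 5. Linker promoters held CCAAT in 6 of 8, TATAAA in 3 of 8 and the octamer in 0 of 8 cases, and variant promoters CCAAT in 3 of 5 and neither other motif. Matches are letters only, not shown sites. Of the members H2bc4, H2bc21, H3c7, H4c14, H2ax and Macroh2a3 had no entry.

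The 160 bases before the start are printed for 5 of the core genes named below and for H2az1, a variant. The choice leaves out H4c8, also called below, whose searched bases held none of the 3 motifs. Each window is given 5′ to 3′ on the gene's strand, with the letters of the 3 motifs (either strand) in capitals.
H2ac4 (chr13:23750928-23751087, plus strand): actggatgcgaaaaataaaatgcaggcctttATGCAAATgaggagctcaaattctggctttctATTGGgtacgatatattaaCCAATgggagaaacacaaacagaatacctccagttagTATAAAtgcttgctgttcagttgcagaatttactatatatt
H2bc3 (chr13:23746574-23746733, plus strand): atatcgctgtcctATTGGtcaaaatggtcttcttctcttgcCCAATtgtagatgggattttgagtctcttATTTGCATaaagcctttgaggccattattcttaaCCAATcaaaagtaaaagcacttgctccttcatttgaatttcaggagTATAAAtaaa
H2bc14 (chr13:21721884-21722043, plus strand): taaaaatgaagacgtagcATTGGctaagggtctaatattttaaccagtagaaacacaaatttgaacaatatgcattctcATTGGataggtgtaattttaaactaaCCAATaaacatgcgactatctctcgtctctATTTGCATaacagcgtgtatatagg
H4c4 (chr13:23581408-23581567, plus strand): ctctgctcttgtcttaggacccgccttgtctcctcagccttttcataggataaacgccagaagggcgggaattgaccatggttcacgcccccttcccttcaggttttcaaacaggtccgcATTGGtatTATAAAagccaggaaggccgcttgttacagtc
H2ac1 (chr13:23934277-23934436, plus strand): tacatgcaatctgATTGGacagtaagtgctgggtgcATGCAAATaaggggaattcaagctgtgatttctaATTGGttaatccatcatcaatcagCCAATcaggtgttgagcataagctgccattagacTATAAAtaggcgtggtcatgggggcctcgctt
H2az1 (chr3:137864327-137864486, plus strand): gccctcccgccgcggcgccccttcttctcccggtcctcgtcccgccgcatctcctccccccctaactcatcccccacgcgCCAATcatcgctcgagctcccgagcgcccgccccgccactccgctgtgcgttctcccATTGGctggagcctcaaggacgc
The H2A and H2B windows each carry the octamer and CCAAT, the H4c4 window CCAAT and a TATA box, and the H2az1 window CCAAT alone. H2ac1 and H2bc1 start 281 bases apart and run away from each other, so the H2ac1 window overlaps the H2bc1 promoter.

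Adriamycin in R1E cells lowered most histone genes and raised none. Of the 38 member probes 30 were lower and 0 higher than in mock cells at an adjusted p below 0.05, the rule for every call here, where 25.8% of all probes were lower and 21.4% higher. The core class led, with 20 of 22 lower and a median log2 change of -0.56, against a median of -0.02 over all probes. Linker histones had 6 of 8 lower (median -0.42) and variants 4 of 8 (median -0.14). In bulk RNA, fewer cells transcribing histone genes and less histone RNA per cell cannot be told apart.

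H2ac4, a core H2A gene of cluster 1, fell furthest. It read 7.75, 7.84, 7.57 and 7.59 on the mock arrays and 5.81, 5.39, 6.34 and 5.82 on the adriamycin arrays. Every adriamycin array lay below every mock array, a 3.60-fold difference (log2 change -1.85 ± 0.14 SE, limma adjusted p = 1.06e-08). H2bc3, its H2B neighbour in cluster 1, read 8.31, 8.23, 8.10 and 8.05 in mock and 6.70, 6.62, 6.87 and 6.70 in adriamycin cells. These groups were also apart, 2.73-fold (-1.45 ± 0.08, adjusted p = 2.05e-10). H2bc4 read 5.85, 6.18, 5.92 and 5.79 in mock and 4.73, 4.78, 4.72 and 4.06 in adriamycin cells, again without overlap (-1.36 ± 0.15, adjusted p = 7.63e-07). H2bc14 fell 2.16-fold, from 9.38 ± 0.12 (SD, n = 4) to 8.27 ± 0.17 (n = 4), and H4c6 fell 2.00-fold, from 9.15 ± 0.07 (n = 4) to 8.15 ± 0.19 (n = 4).

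By family, 4 of 4 core H2A, 8 of 9 H2B, 2 of 3 H3 and 6 of 6 H4 probes were lower. Family medians were -0.46 for H2A, -0.70 for H2B, -0.24 for H3 and -0.56 for H4. By position, 18 of 18 core probes of cluster 1 were lower (median -0.65), and in cluster 2 the 2 lower probes of 4 were H2bc18 (-0.89) and H4c14 (-0.50). Of the core members 19 of 22 had groups that did not overlap, where 24.9% of all probes were lower without overlap. The smallest called falls were H2ac1 at -0.23, H3c7 and H2bc22 at -0.24 each. H2ac1 was not called without mock replicate 1 or adriamycin replicate 1 or 2 (smallest change -0.16, largest adjusted p = 0.0729), and H3c7 was not called without mock replicate 2 (-0.18, adjusted p = 0.054). The core probes that did not pass were H2bc21 (-0.14 ± 0.06, adjusted p = 0.0595) and H3c15 (-0.06 ± 0.09, adjusted p = 0.665). Both were dim, with mock means of 3.77 and 4.62, where the median probe mean in R1E cells was 6.05. The other H3 probes, H3c7 (3.26) and H3c4 (4.99), were dim as well, as was H2ac8 (3.16), which was called lower. The 10 H3 probes with several symbols, given below, had a median of -0.53. The family and cluster medians therefore mix probes of unlike level, and the part of probe level was not tested. The octamer was in 3 of 4 H2A and 5 of 7 H2B promoters. Among genes with it the changes ran from -1.85 to -0.23, and among the fewer without it from -0.68 to -0.24. H2bc4 and H2bc21 had no promoter entry and are in neither range. Ranges of groups of unlike size cannot be set against each other, and the part of the octamer was not tested.

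**Figure D1:**
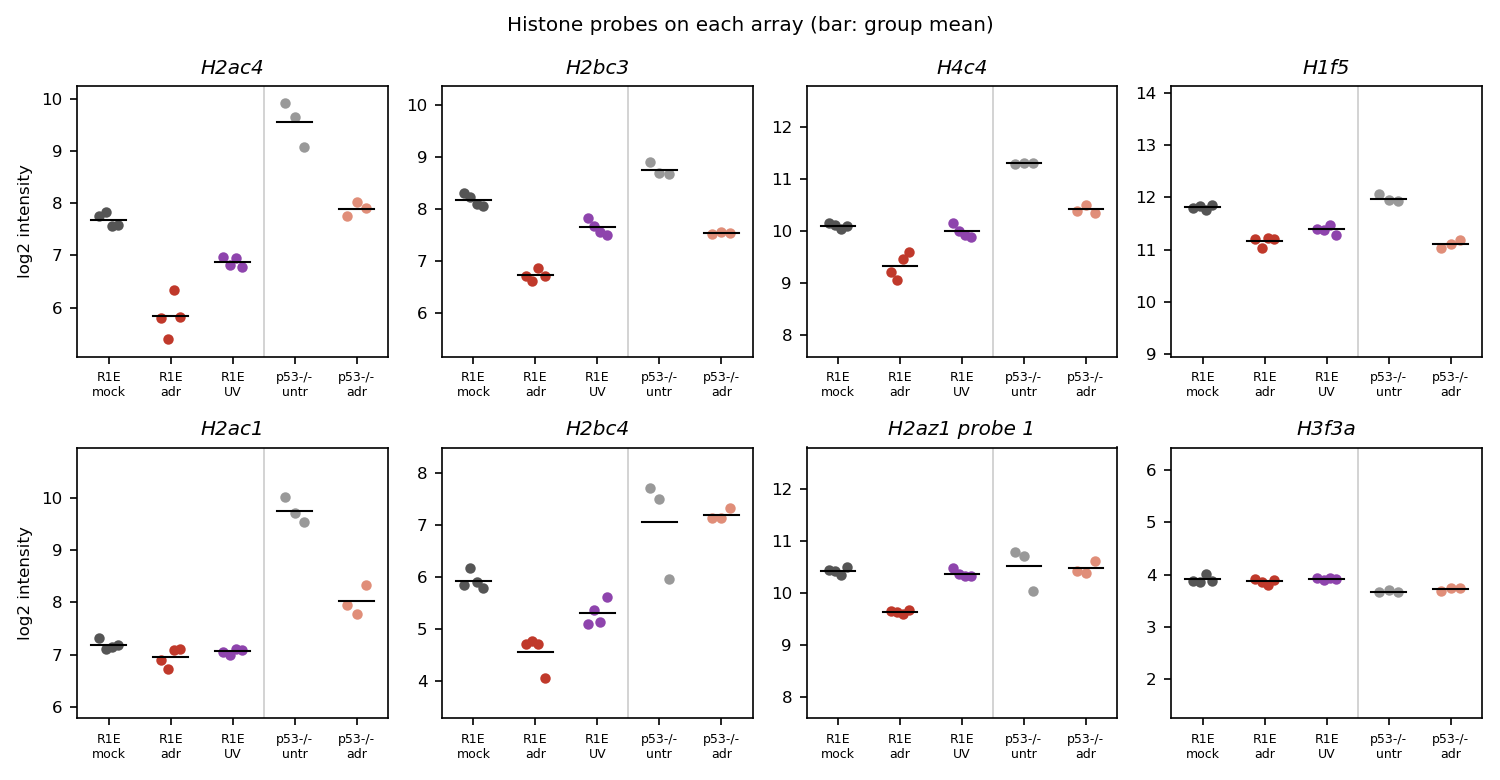
Log2 intensity of 8 histone probes on each array, 1 point per array and a bar at the group mean, with R1E groups left and p53-/- groups right of the line and 5.2 log2 units on every vertical axis. H2ac4 and H2bc3 are lowest after adriamycin in both lines, H2ac1 falls clearly in p53-/- cells, H2az1 is lower after adriamycin in R1E cells, and H3f3a stays near 3.9 in R1E cells.

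The replication-dependent linker histones fell as well. The 4 measured replication-dependent linker genes, H1f1, H1f2, H1f3 and H1f5, were all lower. H1f5 read 11.80, 11.83, 11.75 and 11.86 in mock and 11.20, 11.03, 11.22 and 11.21 in adriamycin cells. The groups were apart (-0.65 ± 0.06, adjusted p = 6.81e-08), and H1f1, at -0.65 ± 0.06, moved by as much. H1f2 changed by -0.51 ± 0.08 and H1f3 by -0.26 ± 0.07, the H1f3 groups overlapping. H1f10, which encodes the replacement linker H1x and lies outside the clusters, read 8.26, 8.33, 8.18 and 8.52 in mock and 7.79, 7.72, 7.34 and 7.39 in adriamycin cells. It had the largest linker change, without overlap (-0.76 ± 0.11, adjusted p = 1.33e-05). H1f6, the testis H1t gene in cluster 1, changed by -0.33 ± 0.07. H1f7, a spermatid linker gene (-0.05 ± 0.06), and H1f8, the oocyte linker gene (0.00 ± 0.06), did not pass.

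Among variants, H2A.Z and H2A.X fell and H3.3 did not pass. H2az1, the main H2A.Z gene, read 10.45, 10.43, 10.35 and 10.50 on its first probe in mock cells and 9.66, 9.64, 9.60 and 9.67 in adriamycin cells. The adriamycin arrays spanned less than 0.1 and lay below all mock arrays (-0.79 ± 0.05, adjusted p = 1.43e-09), and the second probe gave -0.73 ± 0.05. H2ax, whose protein is phosphorylated beside DNA breaks, read 10.81, 10.77, 10.72 and 10.83 in mock and 10.36, 10.16, 10.29 and 10.29 in adriamycin cells. These too were apart (-0.51 ± 0.05, adjusted p = 6.73e-07). Macroh2a1, which encodes a histone with a large added domain, changed by -0.16 ± 0.05 (adjusted p = 0.0119), and was not called after quantile normalization (-0.09, adjusted p = 0.116). H2az2, the other H2A.Z gene, changed by -0.13 ± 0.06 (adjusted p = 0.0755). H3f3a, an H3.3 gene whose probe read near 3.9 in R1E cells, below the median of every array, gave -0.04 ± 0.05, Macroh2a2 -0.01 ± 0.09 and Macroh2a3 0.05 ± 0.06, none past the test.

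UV lowered fewer histone genes, and by less. Of the 38 members 16 were lower and 0 higher than in mock cells, where 21.7% of all probes were lower and 21.7% higher. Lower were 8 of 22 core probes (median change -0.13), 5 of 8 linker probes (-0.25) and 3 of 8 variant probes (-0.05), beside a median of 0.03 over all probes. The UV and adriamycin comparisons share the mock arrays, so their counts are not independent of each other. The core share of 36.4% lay closer to the background than the 90.9% after adriamycin.

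H2ac4 read 6.98, 6.82, 6.95 and 6.78 on the UV arrays, all below the mock arrays and above the adriamycin arrays (-0.80 ± 0.14, adjusted p = 0.00016). H2bc4 changed by -0.63 ± 0.15, H2bc3 by -0.53 ± 0.08 and H4c6 by -0.33 ± 0.08. The smallest called core falls were H2bc14 at -0.30 ± 0.09, H2ac15 at -0.24 ± 0.06 and H2bc18 at -0.20 ± 0.07. H2bc18 was called in 3 of the 8 fits that left out 1 array (smallest change -0.16, adjusted p = 0.119; lost without mock replicate 1 or 4 or UV replicate 2, 3 or 4). Nearest to 0 were H2bc21 (-0.01 ± 0.06) and H4c9 (0.03 ± 0.05). H2bc22 pointed upward without passing (0.17 ± 0.07, adjusted p = 0.0635). Of the H4 probes 1 of 6 was lower, and of the H3 probes 0 of 3.

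H1f5 read 11.40, 11.38, 11.48 and 11.29 on the UV arrays, below every mock array (-0.42 ± 0.06, adjusted p = 1.22e-05). H1f1 (-0.35 ± 0.06), H1f6 (-0.32 ± 0.07) and H1f2 (-0.31 ± 0.08) were lower as well. H1f7 was called at -0.15 ± 0.06 (adjusted p = 0.0475), but in 2 of the 8 fits without 1 array (lost without mock replicate 1, 2 or 4 or UV replicate 1, 2 or 3, adjusted p up to 0.135). Its adjusted p was 0.0537 with all probes fitted, 0.0943 with a trended robust prior and 0.0568 with the 2 groups fitted alone. H1f3 (-0.18 ± 0.07), H1f10 (-0.15 ± 0.11) and H1f8 (0.10 ± 0.06) did not pass. H2ax (-0.23 ± 0.05), Macroh2a1 (-0.22 ± 0.05) and Macroh2a2 (-0.25 ± 0.09) were the variants called lower. Macroh2a2 was lost without mock replicate 1, 2 or 4 or UV replicate 1 or 2 (adjusted p up to 0.108) and with quantile normalization (0.054). The 2 H2az1 probes gave -0.06 ± 0.05 and -0.05 ± 0.05, and H2az2 -0.01 ± 0.06, H3f3a 0.02 ± 0.05 and Macroh2a3 0.09 ± 0.06, none past the test.

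**Figure D2:**
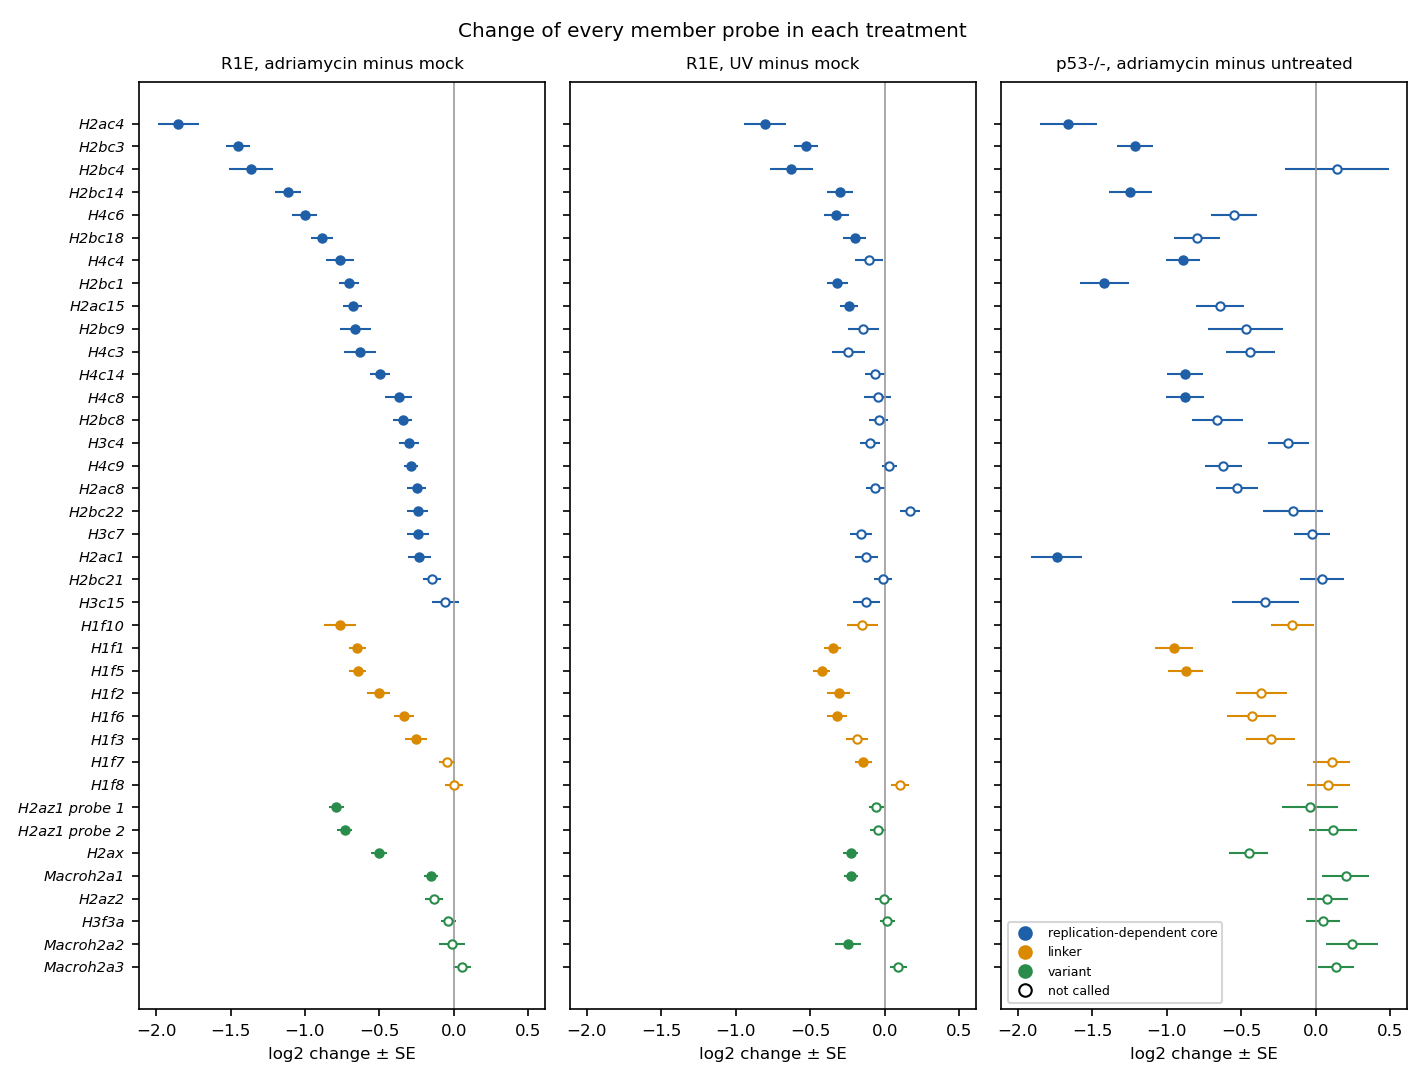
Log2 change with its SE for every member probe after adriamycin or UV in R1E cells and after adriamycin in p53-/- cells, by class, with filled points called and open points not called. In R1E cells 30 probes are called lower after adriamycin and 16 after UV, and in p53-/- cells 10, all at the left of 0.

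Set directly against UV, adriamycin left 25 of 38 members lower and 1 higher, where 21.7% of all probes were lower and 19.9% higher. Lower were 18 of 22 core probes (median difference -0.40), 4 of 8 linker and 3 of 8 variant probes. The largest differences were in H2ac4 (-1.04 ± 0.14), H2bc3 (-0.92 ± 0.08), H2bc14 (-0.81 ± 0.09) and H2bc4 (-0.74 ± 0.15). H2az1 stood out among variants, its 2 probes lower by adriamycin at -0.73 ± 0.05 and -0.69 ± 0.05 with no overlap between the groups. All 6 H4 probes differed, from -0.68 for H4c6 to -0.32 for H4c9. The smallest called core differences were H2ac8 (-0.18), H3c4 (-0.20) and H2bc8 (-0.30), and H3c7 (-0.08) and H3c15 (0.07) were nearest to 0. H2ac8 was lost without adriamycin replicate 2 or 4 or UV replicate 2 or 4 (adjusted p up to 0.0927) or with quantile normalization (0.111), and H3c4 without adriamycin replicate 1, 3 or 4 or UV replicate 2 or 4 (up to 0.0813). H1f10 (-0.61 ± 0.11), H1f1 (-0.30 ± 0.06), H1f5 (-0.22 ± 0.06), H1f2 (-0.19 ± 0.08) and H2ax (-0.27 ± 0.05) were lower. H1f2 was called in 2 of the 8 fits without 1 array, those without adriamycin or UV replicate 4 (adjusted p up to 0.149 in the others), and its adjusted p was 0.061 to 0.0623 with arrays centred, all probes fitted or a trended robust prior. H1f6, with -0.01 ± 0.07, had a 95% interval of the difference from -0.16 to 0.13. Macroh2a2 was the member higher after adriamycin than after UV (0.23 ± 0.09, adjusted p = 0.0433), a call lost without adriamycin replicate 2, 3 or 4 or UV replicate 1 or 2 (adjusted p up to 0.145). It was also lost with quantile normalization (adjusted p = 0.0888), with all probes fitted (0.0556) and with the 2 groups fitted alone (0.0634).

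**Figure D3:**
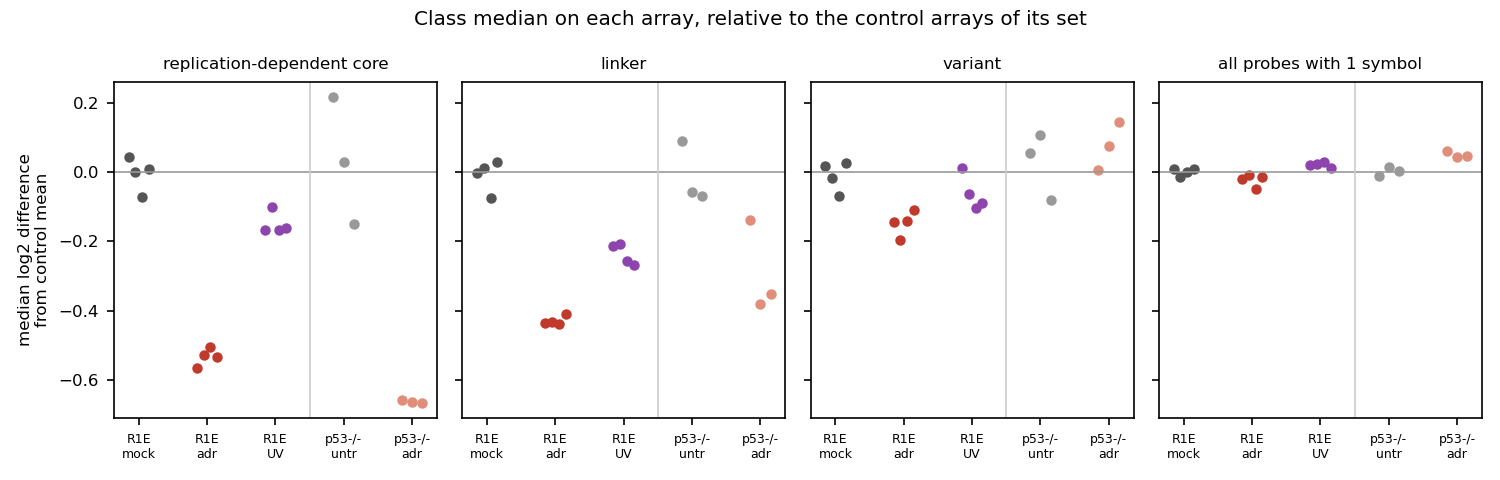
Median over the members of each class of the log2 difference from the mean of the control arrays of the same set, 1 point per array, with all probes at the right. Core medians are -0.57 to -0.50 on the R1E adriamycin arrays, -0.17 to -0.10 on the UV arrays and -0.67 to -0.66 on the p53-/- adriamycin arrays.

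In p53-/- cells adriamycin lowered core histone genes and 2 linker genes. Of the 38 members 10 were lower and 0 higher than in untreated cells, where 0.0689% of all probes were lower and 0.00918% higher. These 10 made up 58.8% of the 17 probes (0.0781%) called in either direction, and they were 8 of 22 core and 2 of 8 linker probes. The core median change was -0.63 and the linker median -0.33, while the variant median was 0.10 and that of all probes 0.05. The summed primitive endoderm level was lower on the same adriamycin arrays, as given above, and its part was not tested. At an unadjusted p below 0.05, 15 of 22 core probes were lower, where 3.97% of all probes were. Core probes whose groups did not overlap numbered 15, where 5.25% of all probes were lower without overlap. The remaining 7 called probes were those of Nrf1, Wtap, Cdh11, H4f16 (a histone H4 symbol outside the naming rule) and Snord37, which were lower, and of Ldoc1 and Procr, which were higher.

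H2ac1, which encodes the testis H2A protein TH2A, fell most. It read 10.02, 9.71 and 9.54 on the untreated and 7.96, 7.77 and 8.33 on the adriamycin arrays. The groups were more than 1 log2 unit apart (-1.74 ± 0.17, adjusted p = 0.00707). H2bc1, its divergently transcribed partner that encodes TH2B, read 7.73, 7.54 and 7.10 in untreated and 6.19, 5.89 and 6.03 in adriamycin cells, without overlap (-1.42 ± 0.17, adjusted p = 0.0128). H2ac4 read 9.92, 9.67 and 9.09 in untreated and 7.75, 8.03 and 7.90 in adriamycin cells, also without overlap (-1.66 ± 0.19, adjusted p = 0.0128). H2bc14 (-1.25 ± 0.14), H2bc3 (-1.21 ± 0.12), H4c4 (-0.89 ± 0.12), H4c8 (-0.88 ± 0.13) and H4c14 (-0.88 ± 0.12) were the other core probes called. H4c4 read 11.29, 11.30 and 11.31 in untreated and 10.38, 10.50 and 10.35 in adriamycin cells. The calls of H4c4, H4c8 and H4c14 each held in 1 of the 6 fits without 1 array, that without untreated replicate 3. In the others the limma adjusted p reached 0.247, 0.341 and 0.269. The remaining core calls held in 2 to 4 of these fits. H3c7 (-0.03 ± 0.12) and H2bc21 (0.04 ± 0.15) lay nearest to 0.

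H1f1 read 11.35, 11.09 and 11.09 in untreated and 10.23, 10.24 and 10.20 in adriamycin p53-/- cells, groups well apart (-0.95 ± 0.12, adjusted p = 0.0211). H1f5 changed by -0.87 ± 0.12 (adjusted p = 0.0241). Each of these calls held in 1 of the 6 fits without 1 array, that without untreated replicate 3 (adjusted p up to 0.234 for H1f1 and 0.269 for H1f5 in the others). H1f6 (-0.43 ± 0.16), H1f2 (-0.36 ± 0.17), H1f3 (-0.30 ± 0.17), H1f10 (-0.16 ± 0.14), H1f8 (0.09 ± 0.14) and H1f7 (0.11 ± 0.12) did not pass. No variant passed. H2ax, with -0.45 ± 0.13 (adjusted p = 0.254), read 9.74, 10.04 and 10.02 in untreated and 9.46, 9.58 and 9.40 in adriamycin cells, which did not overlap. The 2 H2az1 probes gave -0.04 ± 0.19 and 0.11 ± 0.16, H2az2 0.08 ± 0.14 and H3f3a 0.05 ± 0.11. Macroh2a1, Macroh2a2 and Macroh2a3 gave 0.20 ± 0.16, 0.24 ± 0.18 and 0.14 ± 0.12. The Macroh2a3 groups did not overlap either, its adriamycin arrays being the higher ones. Over all 21780 probes 1143 were lower and 2613 higher without overlap.

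The number of calls in p53-/- cells rested on single arrays, while the direction did not. Without adriamycin replicate 1, 2 or 3 there were 0, 0 and 1 members called (of 0, 0 and 1 probes called in all). Without untreated replicate 1 or 2 there were 5 and 3 (of 6 and 3), and without untreated replicate 3 there were 17 (of 480). In these 6 fits 20 or 21 of the 22 core probes had changes below 0, and the core median ran from -0.79 to -0.50. With no array left out, 8240 of all 21780 probes had changes below 0. At an unadjusted p below 0.05, 14 to 18 core probes were lower, while 1546 to 4547 of all probes passed in either direction. The highest counts, 18 core probes and 4547 of all probes, both came from the fit without untreated replicate 3. Untreated replicate 3 was low for several histone probes: H2bc4 read 7.72, 7.49 and 5.97 in untreated and 7.14, 7.14 and 7.32 in adriamycin cells, a change of 0.14 ± 0.35 that did not pass. The first H2az1 probe read 10.80, 10.72 and 10.05 in untreated and 10.43, 10.39 and 10.62 in adriamycin cells. Without that array its change went from -0.04 to -0.28, that of the second H2az1 probe from 0.11 to -0.064 and that of H2bc4 from 0.14 to -0.40.

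The changes after adriamycin in R1E and in p53-/- cells rest on separate arrays and were compared probe by probe. Of the 38 members 7 differed, 4 with the more negative change in R1E cells and 3 with the more negative change in p53-/- cells. Of all probes 11.2% and 10% differed in these directions, so members differed about as often as all probes did. Line, genotype, array set and processing software all differ between the sets, so their effects cannot be told apart. The levels of the sets were normalized separately and were not compared.

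Both H2az1 probes were among those with the larger fall in R1E cells, the R1E change minus the p53-/- change being -0.75 ± 0.19 (adjusted p = 0.0129) and -0.85 ± 0.17 (adjusted p = 0.00207). The first probe was not called without p53-/- adriamycin replicate 3 (adjusted p = 0.0627). Without p53-/- untreated replicate 3 the differences were smaller, at -0.52 and -0.67. H2bc4 differed by -1.50 ± 0.38 (adjusted p = 0.00884), and in all 14 fits without 1 array, its smallest difference being -0.96. H1f10 differed by -0.61 ± 0.18 (adjusted p = 0.0169), a call lost in 3 of those fits, without p53-/- untreated replicate 2 or adriamycin replicate 1 or 3 (adjusted p up to 0.0802). In the other direction H2ac1 differed by 1.51 ± 0.19 (adjusted p = 2.04e-05), called in all 14 fits. H2ac1 changed by -0.23 in R1E cells, where it read 7.31, 7.11, 7.14 and 7.19 in mock and 6.89, 6.73, 7.09 and 7.11 in adriamycin cells, with overlap. Its partner H2bc1 differed by 0.72 ± 0.18 (adjusted p = 0.0095), lost without p53-/- adriamycin replicate 2 (adjusted p = 0.0521). H4c8 differed by 0.51 ± 0.16 (adjusted p = 0.026) and was called in 8 of the 14 fits, being lost without R1E mock replicate 2, R1E adriamycin replicate 1, p53-/- untreated replicate 1 or 2, or p53-/- adriamycin replicate 1 or 3 (adjusted p up to 0.0943). In these fits the number of members called ran from 4, without p53-/- adriamycin replicate 3, to 11, without p53-/- untreated replicate 3.

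The remaining 31 members did not pass. For H2ac4 the difference was -0.19 with a 95% interval from -0.68 to 0.30, for H2bc14 0.13 from -0.22 to 0.48, for H2bc3 -0.24 from -0.54 to 0.07, and for H2ax -0.05 from -0.36 to 0.25. The intervals of H2ac4, H2bc14 and H2ax leave room for differences of moderate size in either direction, and that of H2bc3 mainly for a larger fall in R1E cells. The median difference was -0.06 for the core class, -0.02 for linkers and -0.23 for variants, beside -0.07 over all probes. All 8 variant probes, of 7 genes, had a difference below 0, as did 13110 of all 21780 probes. Of the 8 only the 2 H2az1 probes were called. Across the 38 members the changes in the 2 lines correlated with Pearson's r 0.53 and Spearman's rho 0.54, and across the 22 core probes with 0.40 and 0.43, beside 0.22 for each over all 21780 probes. Probes that read near-identical genes are not independent points, and each change shares its control arrays with all others of its set.

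**Figure D4:**
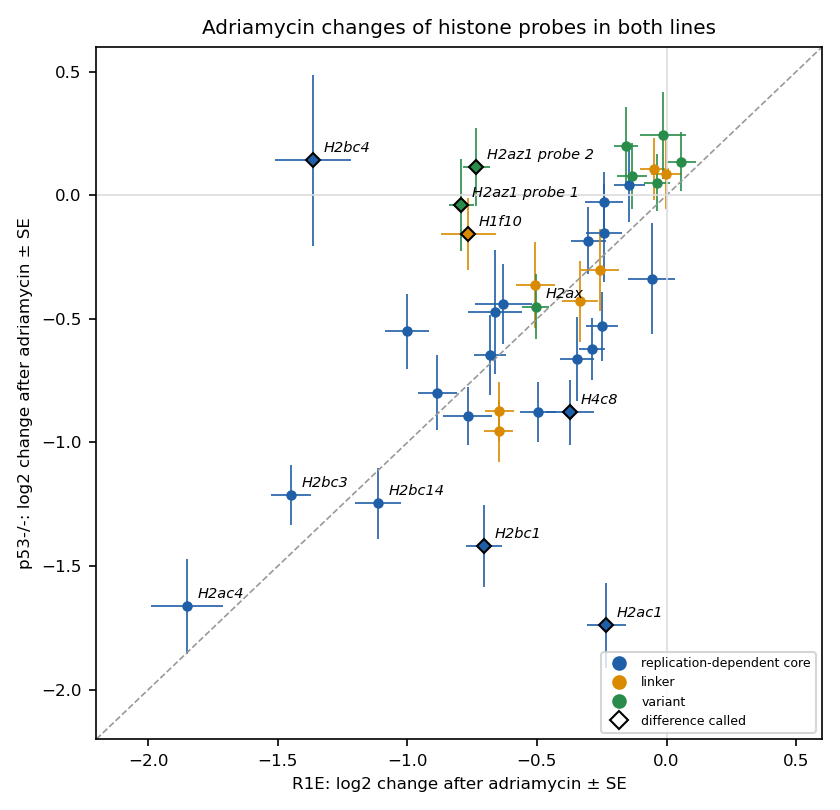
Log2 change after adriamycin in p53-/- cells against that in R1E cells for each member probe, with SE bars, a dashed line of equal change and diamonds for the 7 probes whose difference was called. H2ac4, H2bc3 and H2bc14 lie near the line of equal change, H2ac1 and H2bc1 lie below it, and H2bc4, H1f10 and both H2az1 probes lie above it.

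The 32 histone probes with several symbols read families, not genes. Their calls came from fits of all 28815 probes with values on all arrays, adjusted over that number. In the fits of the 21780 probes with 1 symbol, 25.8% were lower after adriamycin and 21.7% after UV in R1E cells. In p53-/- cells 0.0689% were lower after adriamycin. After adriamycin in R1E cells all 26 of the several-symbol probes outside H3.3 were lower (median -0.54, from -1.04 to -0.27), and 0 of the 6 H3.3 probes were. Among them the 7 H2B probes had a median of -1.0 and the 10 H3 probes one of -0.53. After UV 10 of the 26 were lower: 7 of 7 H2B, 2 of 2 H2A and the 1 shared by H2B and H1, with 0 of 10 H3 and 0 of 6 H4 probes. In p53-/- cells 5 of the 26 were lower after adriamycin (4 H2B and 1 H3, median over the 26 of -0.63), and 0 of the 6 H3.3 probes passed. Many of these probes share the same copies and are not independent.

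Of 22 measured genes that make, process or degrade histone mRNA, 15 (68.2%) were lower and 3 (13.6%) higher after adriamycin in R1E cells (median -0.24), where 25.8% and 21.4% of all probes were. After UV 7 (31.8%) were lower and 4 (18.2%) higher (median -0.05), beside 21.7% and 21.7% of all probes. After adriamycin in p53-/- cells 0 passed (median 0.02), and with 0.0781% of all probes called there this count carries no contrast. Coil, the scaffold of Cajal bodies, changed by -0.78 ± 0.05 after adriamycin in R1E cells, and Slbp, the stem-loop binding protein, by -0.70 ± 0.06. Cstf2, a 3′ end cleavage factor, changed by -0.59 ± 0.05, Hinfp, an activator of H4 genes, by -0.57 ± 0.06 and Npat, the coactivator of histone clusters, by -0.57 ± 0.06. Higher were Tut7 (0.89 ± 0.05) and Tut4 (0.34 ± 0.05), which add uridines to RNA 3′ ends, and Sympk (0.47 ± 0.05), a scaffold of 3′ processing. After UV Npat (-0.36 ± 0.06) and Coil (-0.33 ± 0.05) were lower, Slbp did not pass (-0.10 ± 0.06) and Hinfp was higher (0.15 ± 0.06). Xrn1, a 5′ exonuclease, was among the lowest after UV (-0.51 ± 0.08), and Tut4 went from higher after adriamycin to lower after UV (-0.47 ± 0.05). The adriamycin effect differed between the lines for 4 of the 22 (18.2%) in the direction of a lower R1E change, beside 11.2% of all probes. These 4 were Slbp (-0.92 ± 0.15), Coil (-0.90 ± 0.18), Hinfp (-0.65 ± 0.18) and Cstf2 (-0.47 ± 0.14). In the other direction 2 (9.09%) differed, Tut7 (0.71 ± 0.18) and Tut4 (0.62 ± 0.18), near the 10% of all probes.

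Of 32 measured histone chaperones and exchange factors 17 (53.1%) were lower and 2 higher after adriamycin in R1E cells, beside 25.8% and 21.4% of all probes. After UV 17 were lower and 4 higher, beside 21.7% and 21.7%. In p53-/- cells 0 passed, as did nearly no probe there (0.0781%). Ino80, the ATPase of a nucleosome remodeller, changed by -1.20 ± 0.05 after adriamycin and -1.0 ± 0.05 after UV. Anp32e, which removes H2A.Z, changed by -1.09 ± 0.07 and -0.53 ± 0.07, and Asf1a, an H3-H4 chaperone, by -1.04 ± 0.11 and -0.35 ± 0.11. Nasp, which holds soluble H3-H4, changed by -0.62 ± 0.06 and -0.36 ± 0.06. Higher after adriamycin were Spty2d1 (0.36 ± 0.07), an H3-H4 chaperone, and Tonsl (0.30 ± 0.06), which binds newly made H4. Chaf1a, the large subunit of the replication-coupled chaperone CAF-1, did not pass in either (0.01 ± 0.05 and 0.00 ± 0.05). For Vps72, a subunit of the H2A.Z-loading complex, the change was -0.29 ± 0.06 after adriamycin in R1E cells, and the effect differed between the lines (-0.50 ± 0.15).

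Of 35 measured S phase genes 23 (65.7%) were lower and 3 (8.57%) higher after adriamycin in R1E cells (median -0.19), beside 25.8% and 21.4% of all probes. After UV 12 (34.3%) were lower and 3 (8.57%) higher (median -0.06), beside 21.7% and 21.7% of all probes. In p53-/- cells 0 passed, where 0.0781% of all probes did, and the list's median was 0.13. After adriamycin in R1E cells Ccne1, cyclin E1, changed by -0.89 ± 0.05, Dbf4, the activator of the CDC7 kinase, by -0.86 ± 0.07, E2f2 by -0.85 ± 0.05 and Cdk2 by -0.61 ± 0.04. Higher were Prim1 (0.40 ± 0.08), E2f1 (0.38 ± 0.07) and Rrm2 (0.35 ± 0.05). In p53-/- cells Ccne1 gave 0.28 ± 0.12 and Cdk2 0.19 ± 0.12, neither past the test, and 11 of the 35 (31.4%) differed between the lines, all with the lower change in R1E cells, beside 11.2% of all probes in that direction. In R1E cells 11 of 12 ES cell markers (91.7%) were lower after adriamycin and 7 (58.3%) after UV, beside 25.8% and 21.7% of all probes. In p53-/- cells 0 of 12 passed, where 0.0781% of all probes did, so this count alone carries no contrast. By the difference of effects 8 of the 12 (66.7%) had the lower change in R1E cells, beside 11.2% of all probes. The part of the ES cell markers, and that of S phase, in the histone changes was not tested.

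**Figure D5:**
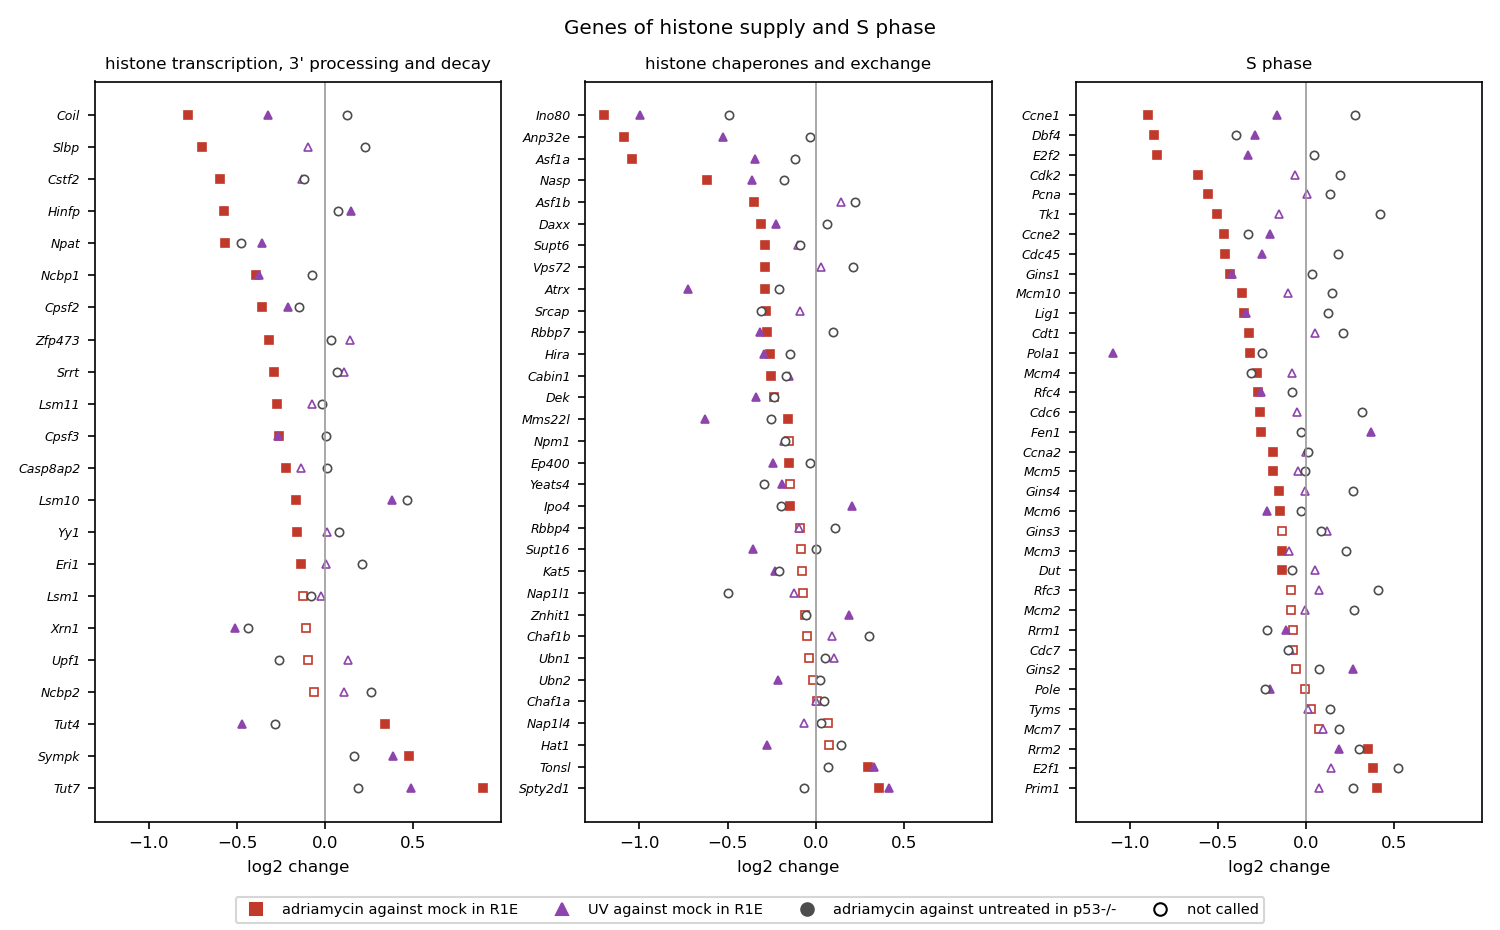
Log2 change of each gene of the 3 lists after adriamycin (squares) and UV (triangles) in R1E cells and after adriamycin in p53-/- cells (circles), filled where called. Coil and Slbp lead the falls of the first list in R1E cells and Tut7 its rises, Ino80 leads the chaperones and Ccne1 the S phase genes, and every p53-/- circle is open.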

How the data were processed

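Groups were taken from the labels. The deposited table holds log2 intensities per probe and array, which the authors made with Affymetrix Expression Console 1.1 for the 12 R1E arrays and with RMA in Partek 6.4 for the 6 p53-/- arrays, per the submitters' processing notes. The algorithm run in Expression Console and the genome build of the array are not given in the sources used here. The sets were normalized separately, so levels were tested within a set only. Background correction, a step of RMA, can compress changes of dim probes.

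Of 28853 deposited probes 28815 had values on all 18 arrays, and the annotation table gave 1 gene symbol for 21780, several for 1605 and none for 5430. Histone probes were taken by symbol, every probe of a gene being kept. All 21780 probes were fitted in limma 3.58.1 (R 4.3.3) with lmFit and eBayes on the deposited log2 values, with no filter, 1 fit for the R1E arrays and 1 for the p53-/- arrays. The difference of the adriamycin effects used both fits, each with its own spread, and Satterthwaite degrees of freedom. P-values were adjusted by Benjamini-Hochberg over all probes and called below 0.05. Histone probes with several symbols were read from the same kind of fits on all 28815 probes, adjusted over that number. Folds are 2 to the power of the log2 change. The fits were tested on simulated arrays, where the difference test made more false calls than its threshold allows. One with fewer degrees of freedom was added after seeing the data and also called 7 members. It was not run on the simulated arrays, so whether it makes fewer false calls is not known. The adjusted p-values printed for the difference come from the first test. Same-numbered arrays of different groups correlated in their deviations from group means between -0.156 and 0.1834 in R1E and between -0.1072 and 0.1924 in p53-/- cells, so the numbers were not taken as pairs.

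Named core probes were, per comparison, the 4 lowest called, the 3 called with the smallest falls, the 2 nearest to 0 and those called in the difference of effects, with every linker and variant probe and up to 4 genes per direction of each list. The rest are given by count or range, and a few more, such as H2bc22, Chaf1a and Vps72, were named after their values were seen. The members, gene lists and tests were chosen with earlier results of these data known. Promoters came from RefSeq (GRCm38.p6).

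Alternatives covered normalization, a filter on dim probes, the choice of probe, the probes and arrays fitted, the eBayes prior, the spread and scale for the difference, a replicate block and each array left out.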

Additional observations from a re-analysis of the deposited data

Results flagged for a closer look

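Of 114 groups of 4 R1E arrays, 1 per member probe and group, 8 held an array far from the other 3 relative to the range of the group, where chance gives about 1 in 20. In mock cells H2bc9 read 7.98 on replicate 3 beside 8.36 to 8.43 on the others, H1f6 read 5.93 on replicate 4 beside 5.67, and H3f3a read 4.02 on replicate 3 beside 3.87. In adriamycin cells H2bc4 read 4.06 on replicate 4 beside 4.72 to 4.78, H2bc8 read 4.28 on replicate 2 beside 4.17 to 4.18, H3c7 read 2.94 on replicate 2 beside 3.04 to 3.05, and H1f5 read 11.03 on replicate 2 beside 11.20 to 11.22. In UV cells H2bc8 read 4.71 on replicate 2 beside 4.42 to 4.47. Of the 4 in adriamycin cells 3 were on replicate 2.

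The change after adriamycin differed between R1E and p53-/- cells for 7 probes by the test of the difference. Of the 38 members 10.5% had the more negative change in R1E cells, beside 11.2% of all probes. In the other direction 3 members differed, beside 10% of all probes. Members thus differed about as often as all probes did. The R1E change minus the p53-/- change was 1.51 for H2ac1, 0.72 for H2bc1 and 0.51 for H4c8, and it was -1.50 for H2bc4, -0.61 for H1f10, -0.75 for H2az1 probe 1 and -0.85 for H2az1 probe 2.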

How the results depend on the processing

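No member called in the fits reported changed direction under any alternative. Numbers of core probes called lower with dim probes left out were 12 of 12 after adriamycin and 11 of 12 against UV in R1E cells, the filter leaving fewer probes. With arrays centred on their medians the class medians were -0.65, -0.51 and -0.23 (core, linker, variant) after adriamycin and -0.22, -0.34 and -0.14 after UV in R1E cells. Centring moved the share of all calls that were higher from 45.4% to 29.9% for adriamycin and from 50% to 31.4% for UV. With quantile normalization the linker and variant medians were -0.49 and -0.072 after adriamycin and -0.29 and -0.011 after UV. With dim probes left out the medians were -0.72, -0.65 and -0.33 after adriamycin, -0.22, -0.35 and -0.14 after UV, -0.59, -0.30 and -0.20 against UV, and -0.62 for linkers in p53-/- cells. With 1 probe per gene the variant median against UV was -0.054. Other counts that moved by over 1.5 times were linkers lower with dim probes left out (3 of 3 after adriamycin, 2 of 3 after UV), variants lower after UV with centring (5), core probes more negative in p53-/- cells with a shared spread (5), variants more negative in R1E cells with 1 probe per gene (1), and variants higher against UV (0 with quantile normalization, all probes, the 2 groups alone or the block). With a replicate block 5 members were called in p53-/- cells, all 5 of the core class; H4c4, H4c8, H4c14, H1f1 and H1f5 had adjusted p from 0.0665 to 0.0889 there, and with the block Macroh2a2 against UV had 0.0631 and H2bc18 after UV 0.0594. For the difference of effects 11 members were called with a shared spread, and core probes with the more negative R1E change numbered 2 with quantile normalization, 2 with a trended robust prior, 2 with a shared spread and 0 with dim probes left out. The cause of these shifts was not tested.

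Leaving out 1 array gave variant medians of -0.16 to -0.12 after adriamycin, and linker and variant medians of -0.29 to -0.20 and -0.088 to -0.030 after UV. Variants higher against UV numbered 0 to 1. In p53-/- cells 0 to 17 members, 0 to 15 core and 0 to 2 linker probes were called, with core medians of -0.79 to -0.50. For the difference 4 to 11 members were called, with 1 to 2 core, 0 to 1 linker and 1 to 2 variant probes more negative in R1E cells and 2 to 7 core probes more negative in p53-/- cells. These values are limited by 3 arrays per p53-/- group, by dim probes and by near-identical gene copies.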
